A study of Drosophila melanogaster with 6 samples.

Results

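Rab GTPases are the small GTP-binding proteins that direct membrane traffic between the compartments of a cell. The deposited count table of Drosophila astrocytes was searched for row symbols that start with Rab or RabX followed by a digit, and 35 of its 16666 rows matched. Of these, 33 are Rab GTPases and 2 are regulators named for Rab3, the exchange factor Rab3-GEF and the GTPase-activating protein subunit Rab3-GAP. All 35 symbols were current names in a RefSeq gene table of the fly. The groups compared were adult astrocytes (4 libraries) and astrocytes of the third larval instar, L3 (2 libraries), that is, astrocytes after and before neuronal remodelling. Every library in both groups came from flies carrying UAS-mCD8::GFP, Alrm-Gal4 and UAS-RedStinger, reared at 25 °C, with no other allele or agent named in the labels. Alrm-Gal4 drives the reporters from the control region of an astrocyte gene, so the cells are defined by that driver and by red fluorescence. Enzyme digestion of the brains, at 29 °C with collagenase/dispase, lasted 30 min in adults and 15 min in L3, so stage and digestion time cannot be told apart. Each library is a pool of 1000 sorted red cells, read as 3′ ends of polyadenylated RNA with a MARS-seq derivative, a method that barcodes RNA and amplifies it by in vitro transcription. The labels give no age within adulthood and do not say whether libraries came from separate animals, so p-values measure only the spread between these samples.

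A Rab cycles between a GDP-bound form in the cytosol and a GTP-bound form on a membrane. Prenylation with the help of Rep attaches the lipid anchor, Gdi extracts the inactive protein from membranes, exchange factors load GTP, and GTPase-activating proteins switch the protein off. On the membrane the GTP-bound form recruits effectors such as tethers and motor adaptors. Fly astrocytes infiltrate the synaptic neuropil, clear transmitters there and engulf neuronal debris during remodelling, and uptake and degradation of such material pass through compartments marked by Rab5 and Rab7.

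The adult libraries held 745129 to 1287871 counts and the L3 libraries 1923097 and 2641671. Levels are given as CPM, a gene's count relative to the total count of its library. Between 26 and 29 of the 35 Rab rows were detected in each adult library, and 30 and 31 in the L3 libraries. The astrocyte gene alrm was abundant at both stages, at 1305 ± 264 CPM in adult (SD, n = 4) and 1103 ± 343 CPM in L3 (SD, n = 2). Of 5 tested astrocyte markers 4 were higher in adult, and their summed level was 9019 to 13907 CPM in adult and 3418 to 5310 CPM in L3. Of 13 tested neuron markers 3 were higher, with a summed level of 496 to 780 CPM in adult and 195 to 425 CPM in L3 over the 16 matched. The neuron gene futsch had no count in any library. Of 2 tested hemocyte markers 1, Hml, was higher. It averaged 1278 CPM in adult and 32.3 CPM in L3, and made up most of the sum over 6 markers. That sum was 909 to 1555 CPM in adult and 46.3 to 47.7 CPM in L3. Pxn, the other tested marker, overlapped between stages (adjusted p = 0.229). NimC1 and He averaged 1.76 and 1.37 CPM in adult, against 1.54 CPM each in L3. The marker srp had counts in adult library 3 alone, and eater had no count in adult. Among photoreceptor markers 2 of 6 tested were higher, but the sum over the 7 matched was 617 to 928 CPM in adult and 885 to 1424 CPM in L3. Most of that sum was inaD, which did not pass (log2 fold change -0.90, adjusted p = 0.0587) and has nearly the counts of RpL23. Among fat body markers 1 was higher and 1 lower of 2 tested, and among surface and cortex glia markers 1 was higher and 1 lower of 6 tested. These counts stand beside 9.65% of all tested genes higher and 13.1% lower. Of the 14 markers called, 7 have a gene with near-identical counts, among them repo (CG7156), Gs2 (Evi5), Gad1 (wit and Faa), Ddc (CG10561) and ninaE (Ask1). The part of other cell types in the Rab levels was not tested, and in pooled cells fewer cells of a type and less RNA per cell cannot be told apart.

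The counts of many genes in this table equal those of another gene, and this bears on the Rab rows first. Of 29 Rab rows with at least 30 counts, 12 (41.4%) had a neighbour in the table, at most 10 rows away, whose counts differed by under 5% of their sum over the 6 libraries. The same held for 58.5% of the 9900.0 genes with that many counts. Rab6 had exactly the counts of Aats-thr, the threonyl-tRNA synthetase gene, with 526 counts each. Rab4 had exactly those of Dcr-2, the RNA interference nuclease gene, with 483 each, Rab10 those of CG17065 with 429, Rab40 those of CG15731 with 166, RabX4 those of CR43166 with 99, Rab30 those of CG31908 with 83, and RabX6 those of Vti1a, a SNARE gene, with 76. RabX1 differed from CG3906 by 1 count, Rab18 from CG4119 by 2, Rab21 from FucTC by 4 and Rab32 from CG8026 by 12. Rab27 had 11137 counts and sta, a gene for a small ribosomal subunit protein, had 11320, and rush and a pair of small nucleolar RNA genes were as close.

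In a current Ensembl annotation the closest such partner lies on the opposite strand, tail to tail, for 5 of these 12 Rab genes (Rab6, Rab4, RabX6, Rab18 and Rab10) and on the same strand for the other 7. A further 2 of 22 Rab rows with at least 100 counts were near-identical, within 1% of summed counts, to a gene far away in the table, against 4.985% of 7201 genes. These were Rab14, which differed from CG4495 by 2 counts of 682, and Rab39, which differed from CG2930 by 1. The sources used here do not say whether the counting used strand. The counts do not show which gene of a pair was transcribed, so the values of these 14 Rab genes could belong to their partners. With a looser limit of 30%, 26 of the 29 Rab rows (89.7%) and 81.3% of all genes had an alike neighbour. The Rab rows without one were Rab9, Rab26 and RabX5.

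**Figure D1:**
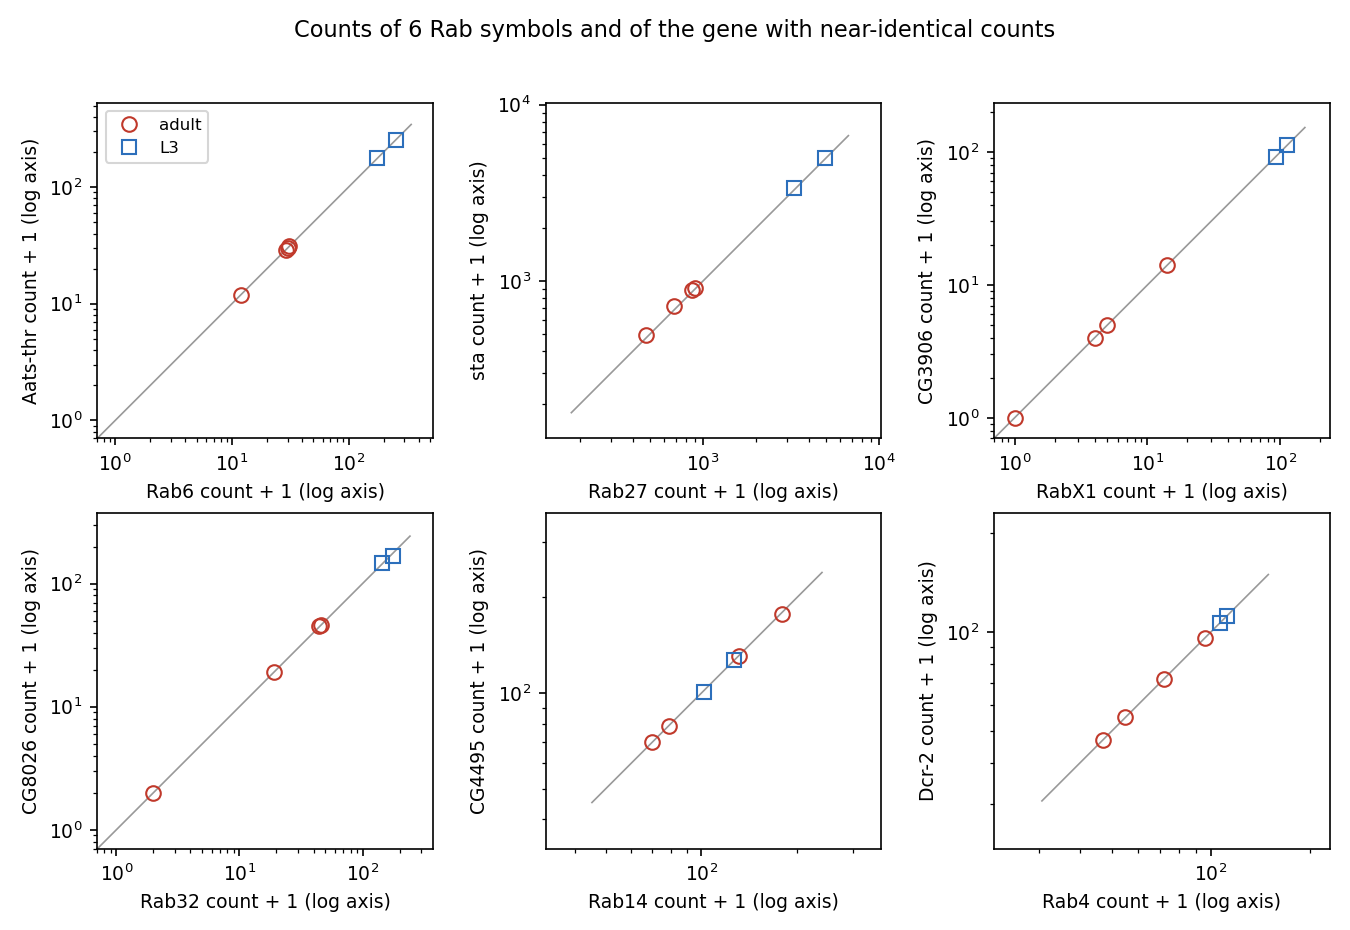
Counts of 6 Rab genes (x axis, count + 1, log axis) against those of the gene with near-identical counts (y axis, count + 1, log axis), with circles for the 4 adult libraries and squares for the 2 L3 libraries. The grey line marks equal counts, and all points lie on or beside it, exactly for Rab6 with Aats-thr and Rab4 with Dcr-2.

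Of the 35 Rab rows, 25 passed the filter on low counts, 24 GTPases and Rab3-GAP. By edgeR's quasi-likelihood test with Benjamini-Hochberg adjustment over 9082 genes, 1 Rab row was higher in adult (Rab9) and 4 were lower (Rab6, Rab11, Rab27 and RabX1). Among all genes tested 9.65% were higher and 13.1% lower, so 1 and 4 of 25 are shares close to the background. Higher calls made up 42.4% of all calls with edgeR and 52.9% with DESeq2. The median log2 fold change, adult minus L3, was 0.028 over the tested Rab rows and -0.14 over all tested genes. All adult libraries lay above both L3 libraries for 4 tested Rab rows (Rab9, Rab10, Rab14 and Rab19), against 14.8% of all genes, and below both for 5 (Rab6, Rab11, Rab27, Rab32 and RabX1), against 22.9%. The median coefficient of variation among adult libraries was 36.0% over the tested Rab rows and 61.5% over all tested genes, and 9 of the 25 rows lay above 61.5%. The lists were not matched on level, and the difference was not tested. Of the 11 tested GTPases without a near-identical gene, 1 was higher and 1 lower, Rab9 and Rab11. Of the 13 with one, none was higher (1, Rab14, at an unadjusted p under 0.05) and 3 were lower. With L3 library 1 left out, edgeR called no Rab row higher and 1 lower, against 4.04% and 5.1% of all genes, and 1 and 3 Rab rows had an unadjusted p under 0.05. That fit takes the spread from the adult libraries alone, since a lone L3 library has none. DESeq2 and limma-voom, run on all 6 libraries, each called Rab9 higher.

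**Figure D2:**
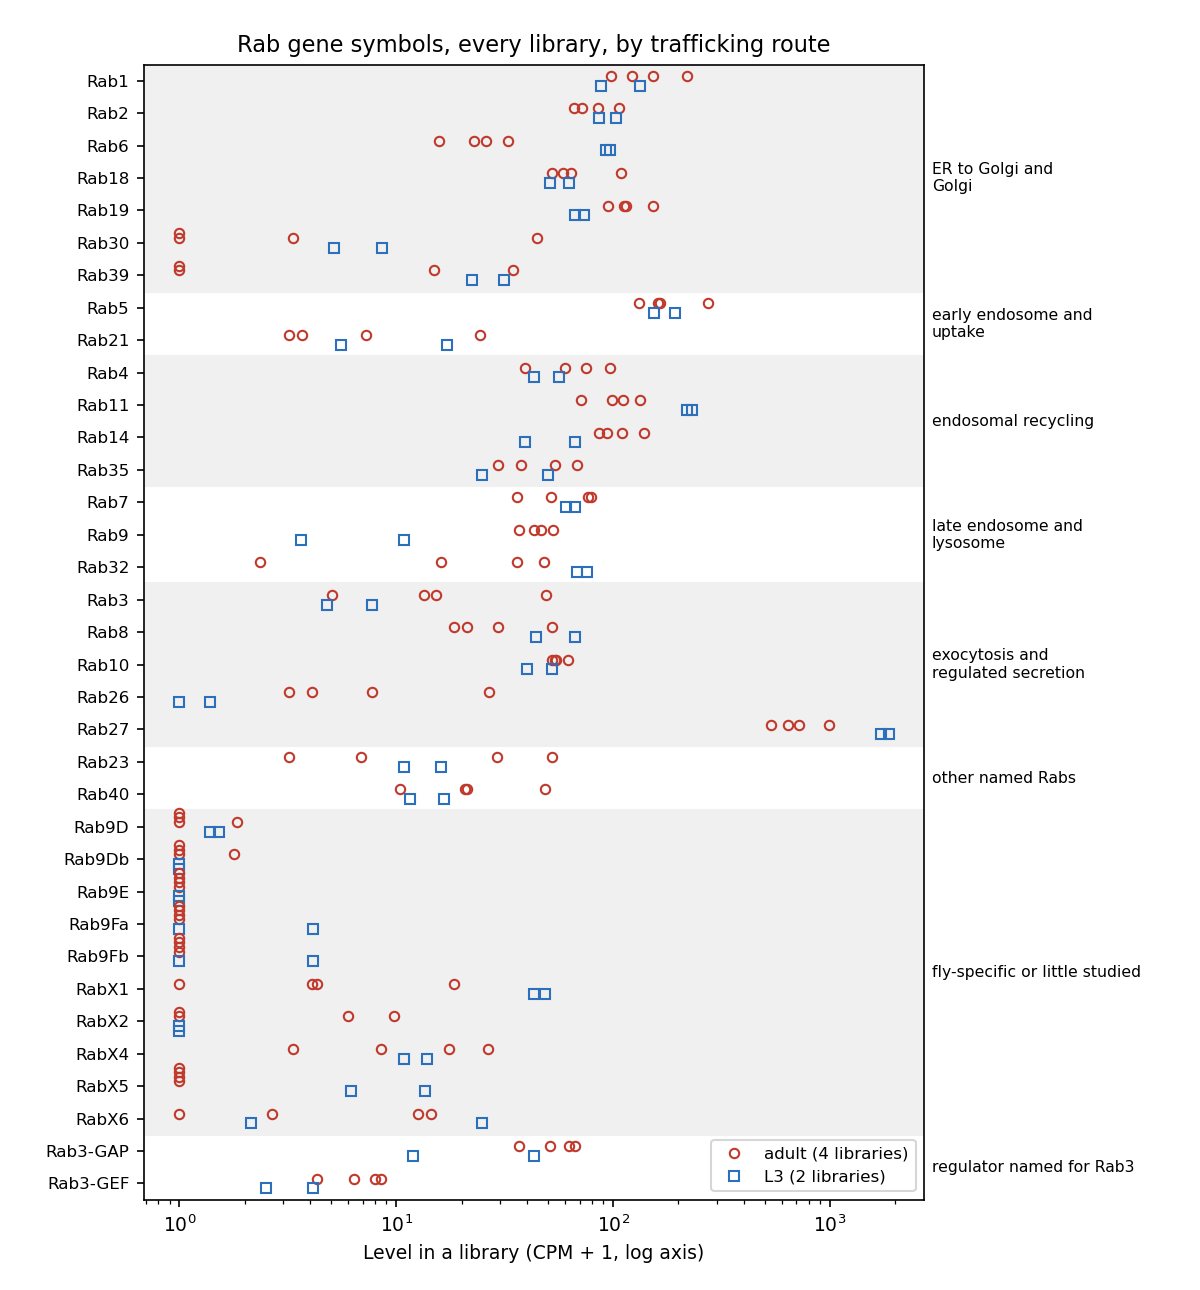
Level of each of the 35 Rab rows in each library (x axis, CPM + 1, log axis), with circles for the 4 adult and squares for the 2 L3 libraries, and rows grouped by trafficking route. Rab9 circles (35.9 to 51.5 CPM) lie right of the squares (2.65 and 9.88 CPM), while Rab6, Rab11, Rab27 and RabX1 circles lie left of theirs.

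The 33 Rab GTPases together had 1935, 1992, 2265 and 1853 CPM in adult libraries, against 3098 and 3173 CPM in L3 libraries. That gap between the stages lay in the Rab27 row, which has the counts of sta. Without it the other 32 had 1217, 1351, 1278 and 1319 CPM in adult, against 1238 and 1459 CPM in L3, and the stages overlapped. These sums are descriptions of the libraries and carry no test.

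Along the route from the endoplasmic reticulum through the Golgi, 1 of 6 tested Rabs was lower in adult, against 13.1% of all tested genes. None was higher, against 9.65% (none higher at an unadjusted p under 0.05 either). The summed level overlapped between stages (421 to 509 CPM in adult, 428 and 479 CPM in L3). Rab6, which acts in traffic at the Golgi, had 25.0, 14.8, 31.8 and 21.7 CPM in adult, against 95.4 and 91.5 CPM in L3. Every adult value was below both L3 values, with means of 23.3 ± 7.08 CPM in adult (SD, n = 4) and 93.5 ± 2.74 CPM in L3 (SD, n = 2). This was a log2 fold change of -2.02 (SE 0.47, 95% interval -3.00 to -1.04, adjusted p = 0.00345), a 4.06-fold lower level in adult. These are equally the values of Aats-thr. With L3 library 1 left out Rab6 did not pass (adjusted p = 0.0677, and 0.0033 to 0.0815 over all alternatives).

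Rab1, which starts traffic from the endoplasmic reticulum to the Golgi, had 96.9, 219, 152 and 121 CPM in adult, against 86.7 and 132 CPM in L3. The stages overlapped, and the log2 fold change of 0.39 had a 95% interval of -0.41 to 1.19 (SE 0.39, adjusted p = 0.519). Rab2, which acts at the Golgi, had 71.0, 84.5, 64.7 and 104.8 CPM in adult, against 85.2 and 102 CPM in L3, again with overlap (log2 fold change -0.22, adjusted p = 0.741). Rab18, known in mammals for its place on lipid droplets, had 57.6, 63.1, 107 and 51.2 CPM in adult, against 50.3 and 61.9 CPM in L3, and shares its counts with CG4119. Its log2 fold change was 0.27 (adjusted p = 0.719).

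Rab19, a Golgi Rab in the fly, was in every adult library above both L3 libraries, with 93.5, 111, 152 and 114 CPM in adult and 72.7 and 65.5 CPM in L3. Its log2 fold change of 0.71 did not pass (SE 0.39, adjusted p = 0.207), and its counts were within 11.0% of those of the neighbour BI-1. Rab39 had 33.4, 0, 0 and 14.0 CPM in adult, against 30.3 and 21.3 CPM in L3, so 2 adult libraries held no count of it (log2 fold change -0.98, SE 0.79, adjusted p = 0.411). The log2 fold change was -2.15 without adult library 1 and -2.68 with limma-voom (adjusted p = 0.133 and 0.117, and 0.117 to 0.854 over all alternatives). Rab30, a Golgi Rab, did not pass the filter. It had 52, 0, 0 and 3 counts in adult, against 20 and 8 in L3, so nearly all its adult counts came from library 1, as they did for CG31908 with the same counts.

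Of 2 tested Rabs of early endosomes none passed in either direction, and none had an unadjusted p under 0.05. Rab5, which drives fusion of early endosomes, had 130.25, 274, 163 and 160.0 CPM in adult, against 154 and 191 CPM in L3. The means were 182 ± 63.1 CPM in adult (SD, n = 4) and 173 ± 26.6 CPM in L3 (SD, n = 2), and the L3 values lay within the adult range. Rab5 had a log2 fold change of 0.028 (SE 0.36, 95% interval -0.72 to 0.77, adjusted p = 0.971), and it was -0.19 without adult library 2. The neighbour eys differed from Rab5 by 10.5% of summed counts. Rab21, known for the uptake of integrins, had 23.4, 2.68, 2.19 and 6.21 CPM in adult, against 4.54 and 16.1 CPM in L3. Adult library 1 held most of its adult counts, and its log2 fold change of -0.026 had an interval of -1.94 to 1.88.

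Among 4 Rabs of endosomal recycling, 1 was lower in adult, against 13.1% of all tested genes. Rab11, the Rab of the slow recycling endosome, had 132, 69.8, 109.6 and 97.8 CPM in adult, against 231 and 217 CPM in L3. All adult values lay below both L3 values, and the means were 102 ± 25.9 CPM in adult (SD, n = 4) and 224 ± 9.59 CPM in L3 (SD, n = 2). Rab11 had a log2 fold change of -1.15 (SE 0.35, 95% interval -1.88 to -0.42, adjusted p = 0.0211), a 2.22-fold lower level in adult. Rab11 had no near-identical gene, and its closest neighbour r-l differed by 17.9% of summed counts. Rab11 did not pass when L3 library 1 (adjusted p = 0.244), adult library 2 (0.0656) or adult library 4 (0.0578) was left out, nor with edgeR's earlier quasi-likelihood method (0.0591), and adjusted p ran from 0.0200 to 0.244 over all alternatives.

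Rab14, which in mammals links endosomes and the Golgi, lay the other way. It had 109, 92.6, 85.5 and 138 CPM in adult, against 38.2 and 65.5 CPM in L3, with means of 106 ± 23.4 CPM in adult (SD, n = 4) and 51.9 ± 19.3 CPM in L3 (SD, n = 2). The stages did not overlap, but the log2 fold change of 1.07 (SE 0.41, 95% interval 0.21 to 1.93) did not pass the threshold (adjusted p = 0.0683). It passed without adult library 3 (adjusted p = 0.0379, and 0.0379 to 0.386 over all alternatives), and the counts are also those of CG4495. Rab4, of fast recycling, had 38.4, 95.3, 59.2 and 73.8 CPM in adult, against 42.0 and 55.1 CPM in L3 (log2 fold change 0.41, adjusted p = 0.579). Rab35 had 36.7, 67.1, 28.5 and 52.8 CPM in adult, against 23.8 and 48.9 CPM in L3 (log2 fold change 0.35, adjusted p = 0.682). Both overlapped between stages, and over the 4 recycling Rabs the summed level was 283 to 363 CPM in adult and 335 and 387 CPM in L3.

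Among 3 Rabs of late endosomes and lysosomes 1, Rab9, was higher in adult and none was lower, against 9.65% and 13.1% of all tested genes. At an unadjusted p under 0.05, 1 was higher and 1 lower. Rab9, which returns cargo from late endosomes to the Golgi, had 35.9, 45.6, 51.5 and 41.9 CPM in adult, against 2.65 and 9.88 CPM in L3. These levels rest on 43, 34, 47 and 54 counts in adult, against 7 and 19 counts in L3. Every adult library was above both L3 libraries, and the means were 43.7 ± 6.55 CPM in adult (SD, n = 4) and 6.26 ± 5.11 CPM in L3 (SD, n = 2). This gave a log2 fold change of 2.86 (SE 0.72, 95% interval 1.36 to 4.35, adjusted p = 0.00618), a 7.24-fold higher level in adult. Rab9 was the called Rab gene with no alike neighbour even at the looser limit. Leaving out L3 library 1, the library with the lower Rab9 level, ended the call (log2 fold change 2.26, adjusted p = 0.126). With L3 library 2 left out the log2 fold change was 3.80, and adjusted p ran from 0.00186 to 0.126 over all alternatives.

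Rab7, the Rab of late endosomes on their way to lysosomes, had 77.6, 34.9, 50.4 and 75.3 CPM in adult, against 65.9 and 59.3 CPM in L3. The L3 values lay inside the adult range, with means of 59.6 ± 20.6 CPM in adult (SD, n = 4) and 62.6 ± 4.66 CPM in L3 (SD, n = 2). Rab7 had a log2 fold change of -0.063 (SE 0.44, 95% interval -0.97 to 0.84, adjusted p = 0.940), and it was positive without adult library 2 (0.11), adult library 3 (0.070) or L3 library 1 (0.21). Rab32, which serves lysosome-related organelles such as the pigment granules of the fly eye, had 15.0, 1.34, 47.1 and 34.9 CPM in adult, against 67.0 and 74.4 CPM in L3. All adult values were below both L3 values but spread widely, 24.6 ± 20.4 CPM in adult (SD, n = 4) and 70.7 ± 5.20 CPM in L3 (SD, n = 2). The log2 fold change of -1.49 (SE 0.55, 95% interval -2.63 to -0.35) had an adjusted p of 0.0547, and it passed without adult library 3 (adjusted p = 0.0279, and 0.0134 to 0.307 over all alternatives). Its near-identical neighbour CG8026 had a log2 fold change of -1.44.

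Among the 4 tested Rabs of exocytosis and regulated secretion, 1 was lower in adult, against 13.1% of all tested genes. The Rab27 row, whose product acts on secretory granules, had 718, 640.2, 987 and 534 CPM in adult, against 1860.2 and 1714 CPM in L3. All adult values were below both L3 values, with means of 719.96 ± 194 CPM in adult (SD, n = 4) and 1787 ± 103 CPM in L3 (SD, n = 2). The log2 fold change was -1.35 (SE 0.31, 95% interval -2.0 to -0.70, adjusted p = 0.0032), a 2.55-fold lower level, and that of sta was -1.33 (adjusted p = 0.00339). Rab27 and this ribosomal protein gene cannot be told apart in the row. It did not pass when L3 library 1 was left out (adjusted p = 0.0573, and 0.00039 to 0.0802 over all alternatives). Without Rab27 and Rab10, which share their counts, this route summed to 68.5, 30.9, 67.9 and 66.8 CPM in adult, against 47.3 and 72.3 CPM in L3.

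Rab3, the Rab of synaptic vesicles, had 14.2, 4.03, 48.2 and 12.4 CPM in adult, against 3.79 and 6.76 CPM in L3. Adult library 3 stood above the others and library 2 lay within the L3 range, and the log2 fold change of 1.88 (SE 0.94, 95% interval -0.074 to 3.84) did not pass (adjusted p = 0.161). The neighbour stan differed from Rab3 by 8.33% of summed counts. Neuron markers summed to 496 to 780 CPM in adult and 195 to 425 CPM in L3, and their part in the Rab3 level was not tested. Rab8, which carries cargo to the cell surface, had 28.4, 20.1, 17.5 and 51.2 CPM in adult, against 43.2 and 65.5 CPM in L3 (log2 fold change -0.80, SE 0.51, adjusted p = 0.280). Its stages overlapped through adult library 4.

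Rab10, a relative of Rab8, was the steadiest Rab among adult libraries, with 60.95, 51.0, 53.7 and 52.8 CPM in adult and 39.0 and 51.0 CPM in L3. The coefficient of variation over the adult libraries was 8.01%, the lowest adult value was 50.998 CPM against a highest L3 value of 50.96 CPM, and the difference did not pass (log2 fold change 0.27, adjusted p = 0.719). Rab26, which joins secretory vesicles to autophagy in mammals, did not pass the filter. It had 31, 5, 2 and 4 counts in adult, against 1 and 0 in L3, so it was detected in all 4 adult libraries and in 1 of the L3 libraries. The ratio of pooled counts was 46.3, with a 95% counting interval of 7.86 to 1871, and library 1 held most of the adult counts. With no filter its adjusted p was 0.108, and it was 0.0207 when adult libraries 3 and 4 were left out, which keeps adult library 1. On those same libraries with a replicate block it was 0.125, and with DESeq2 on all 6 libraries it was 0.0693.

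**Figure D3:**
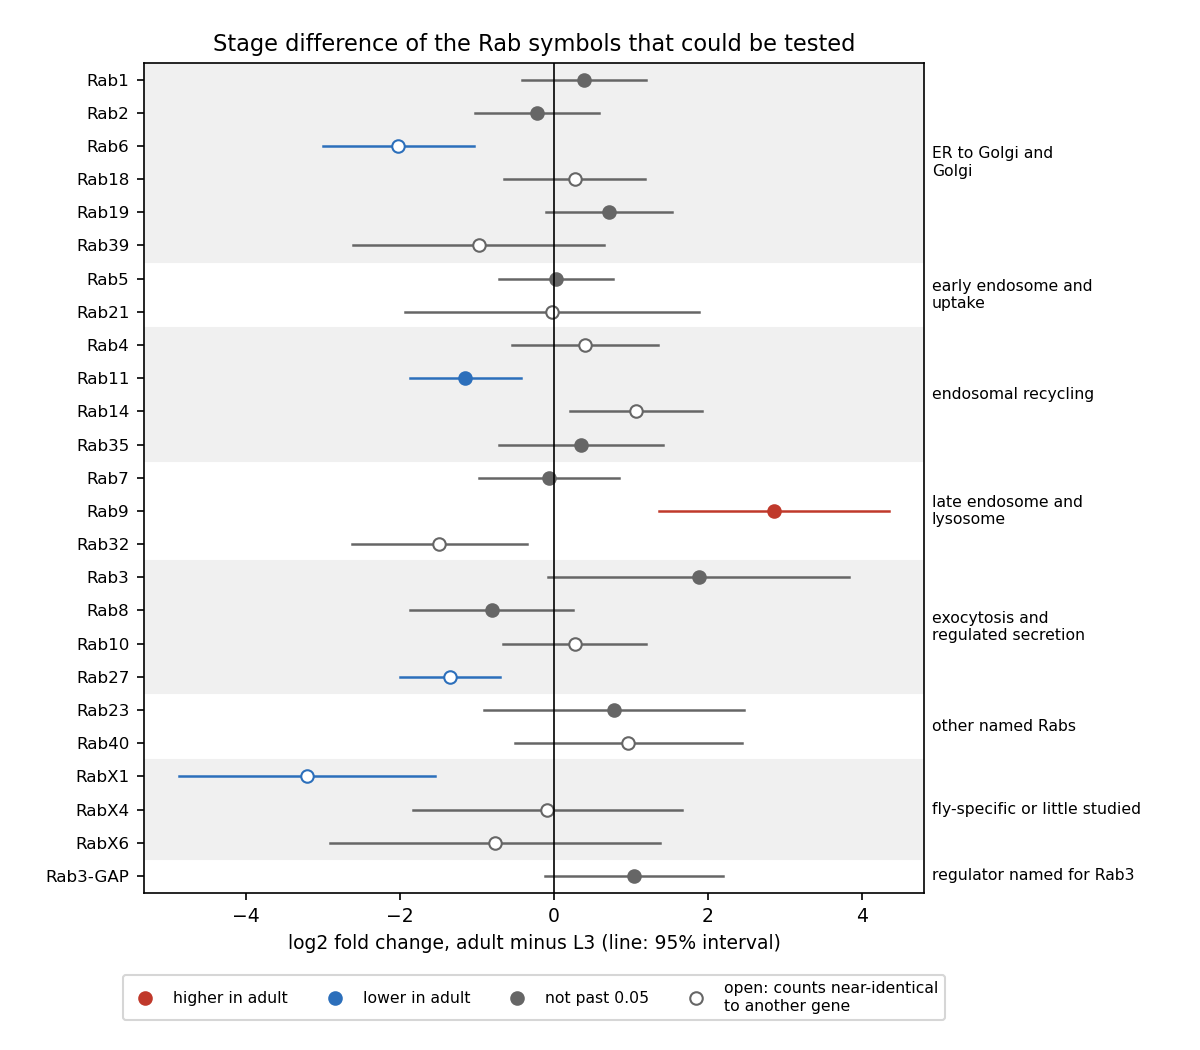
Log2 fold change, adult minus L3 (x axis), of the 25 Rab rows that passed the filter on low counts, with lines for 95% intervals that are not adjusted for the number of genes. Open points have counts near-identical to another gene, and of the called rows Rab9 (2.86) and Rab11 (-1.15) are filled.

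Rab23, a regulator of planar polarity in the fly, had 5.84, 28.2, 2.19 and 51.2 CPM in adult, against 15.1 and 9.88 CPM in L3, so adult libraries lay on both sides of L3 (log2 fold change 0.78, SE 0.81, adjusted p = 0.543). Rab40, which in mammals carries a domain that recruits a ubiquitin ligase, had 47.6, 9.39, 19.7 and 20.2 CPM in adult, against 10.6 and 15.6 CPM in L3 (log2 fold change 0.97, SE 0.71, adjusted p = 0.358). Neither differed beyond its spread, and neither direction had an unadjusted p under 0.05 in this pair.

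Among fly-specific or little studied members, 3 of 10 passed the filter and 1 of them was lower in adult, against 13.1% of all tested genes. RabX1 had 0, 17.4, 3.29 and 3.11 CPM in adult, against 42.0 and 47.3 CPM in L3. All adult values lay below both L3 values, with means of 5.96 ± 7.80 CPM in adult (SD, n = 4) and 44.7 ± 3.75 CPM in L3 (SD, n = 2). The log2 fold change was -3.20 (SE 0.81, 95% interval -4.87 to -1.54, adjusted p = 0.00507), a 9.21-fold lower level in adult, and these values are also those of CG3906. The call was kept without any single library but lost with DESeq2 (adjusted p = 0.0862) and with edgeR's earlier quasi-likelihood method (0.151), and adjusted p ran from 0.0019 to 0.174 over all alternatives. Without adult library 2, the adult library with the most RabX1, the log2 fold change was -4.39.

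RabX4 had 7.51, 25.5, 16.4 and 2.33 CPM in adult, against 12.9 and 9.88 CPM in L3 (log2 fold change -0.083, adjusted p = 0.961). RabX6 had 1.67, 13.4, 0 and 11.6 CPM in adult, against 1.14 and 23.9 CPM in L3 (log2 fold change -0.77, SE 1.04, adjusted p = 0.656). Both overlapped between stages, and the RabX6 difference turned to 2.26 without L3 library 2.

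The other 7 members of this group did not pass the filter. RabX5 had no count in any adult library, against 33 and 10 counts in L3. Its pooled L3 level was 13.0-fold a floor of 3 counts over the adult stage (0.724 CPM), or 7.18-fold without L3 library 1. Such a fold takes the counted stage as it stands, so it is not a guaranteed minimum. Its adjusted p with no filter was 0.0860. RabX2 had 6, 0, 8 and 0 counts in adult, against none in L3, so 2 adult libraries had none either. Pooled over the stage its adult level was 5.14-fold a floor of 3 counts (0.657 CPM), or 2.83-fold without adult library 3, and its adjusted p with no filter was 0.298. Rab9Fa and Rab9Fb, which had the same counts as each other, had none in adult, against 0 and 6 counts each in L3. The pooled L3 level of each was 1.82-fold the adult floor. All 6 counts were in L3 library 2, and adjusted p with no filter was 0.533 for each. Rab9D had 1, 0, 0 and 0 counts in adult, against 1 and 1 in L3, Rab9Db had 1 count in adult library 4 alone, and Rab9E had none in any library. These levels are at or under the floor, so no fold is given, and genes with like sequences can split or lose reads in the counting.

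Neither regulator named for Rab3 passed the test. Rab3-GAP, a subunit of the protein that switches Rab3 off, had 50.1, 61.7, 65.8 and 35.7 CPM in adult, against 11.0 and 42.1 CPM in L3 (log2 fold change 1.05, SE 0.56, adjusted p = 0.188). L3 library 2 lay within the adult range, and the log2 fold change was 0.44 without L3 library 1 and 2.05 without L3 library 2 (adjusted p = 0.761 and 0.0860, and 0.0860 to 0.761 over all alternatives). Rab3-GEF, the exchange factor, had 9, 4, 3 and 9 counts in adult, against 4 and 6 in L3, and did not pass the filter (adjusted p = 0.487 with no filter). Relative to library totals this was 7.51, 5.37, 3.29 and 6.99 CPM in adult, against 1.51 and 3.12 CPM in L3. Every adult value was above both L3 values, but on few counts.

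**Figure D4:**
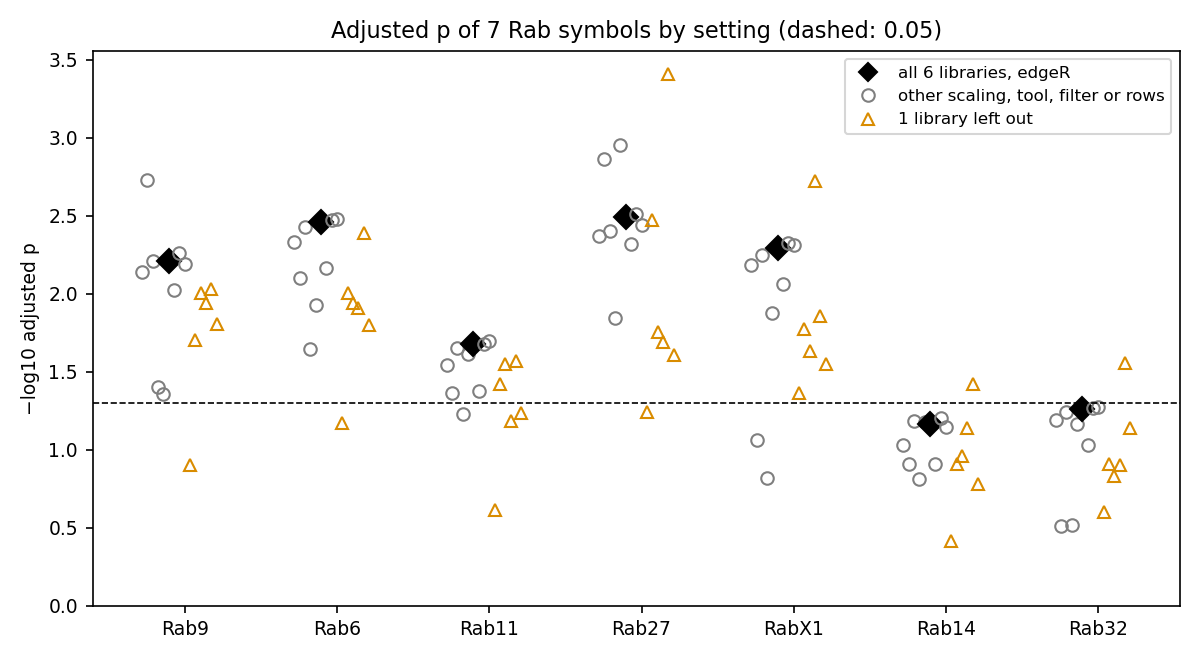
Adjusted p of the 5 called Rab rows and of Rab14 and Rab32 (y axis, −log10 scale) with all 6 libraries in edgeR (diamonds), with another scaling, tool, filter or set of rows (circles) and with 1 library left out (triangles); the dashed line is at 0.05. Points below the line did not pass, such as Rab9 without L3 library 1 (adjusted p = 0.126).

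The proteins that load, extract and use Rabs were taken as a wider list of 62 gene names, of which 59 matched a row and 52 were tested. Of these, 5 were higher and 7 lower in adult, against 9.65% and 13.1% of all genes, with a median log2 fold change of -0.11 (-0.14 over all genes). A near-identical gene was found for 33 of the 52, and for 11 of the 12 called. The exception was Gdi, the protein that extracts Rabs from membranes. It had 150.3, 87.2, 146 and 172 CPM in adult, against 261 and 281 CPM in L3, with all adult values below both L3 values (139 ± 36.4 CPM in adult, SD, n = 4, and 271 ± 14.1 CPM in L3, SD, n = 2). Its log2 fold change was -0.97 (SE 0.34, adjusted p = 0.0418), and the call was lost when any single library was left out (adjusted p = 0.0524 to 0.270) and with DESeq2 (0.0824, and 0.0394 to 0.270 over all alternatives). Rep, the escort for prenylation, had 5.84, 1.34, 32.9 and 18.6 CPM in adult, against 52.6 and 23.4 CPM in L3, overlapped and did not pass (log2 fold change -1.45, adjusted p = 0.143). Its counts are within 0.204% of those of hpo, the Hippo kinase gene.

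Among 10 tested exchange factors, 1 was higher and 2 were lower, against 9.65% and 13.1% of all tested genes. Mon1, which with Ccz1 forms the exchange factor of Rab7, had 8.35, 1.34, 2.19 and 0.776 CPM in adult, against 71.5 and 79.0 CPM in L3. The log2 fold change was -4.48 (SE 0.71, adjusted p = 3.72e-05), with no overlap between stages, and -5.72 without adult library 1 (adjusted p = 0.000167, and 3.33e-05 to 0.0443 over all alternatives). The counts are within 0.560% of those of the distant gene hoip. Rabex-5, an exchange factor of Rab5, averaged 1438 ± 250 CPM in adult (SD, n = 4) and 2588 ± 661 CPM in L3 (SD, n = 2; log2 fold change -0.91, adjusted p = 0.0416). Its counts are those of scf, and nearly those of the distant ribosomal protein gene RpL8, and the call was lost when adult library 1, 2 or 4 or L3 library 1 was left out (adjusted p = 0.117 to 0.520) or with DESeq2 (0.0535, and 0.00891 to 0.520 over all alternatives). CG7787, named strat in RefSeq and known in the fly for work with Rab8 and Rab10, averaged 477 ± 169 CPM in adult (SD, n = 4) and 80.6 ± 13.3 CPM in L3 (SD, n = 2; log2 fold change 2.56, adjusted p = 6.84e-05), with the counts of CG7781.

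Among 9 subunits of TRAPP, the exchange complex of the Golgi, SIDL was higher and none was lower (1 at an unadjusted p under 0.05). The shares over all tested genes were 9.65% and 13.1%. SIDL averaged 131 ± 5.77 CPM in adult (SD, n = 4) and 14.7 ± 2.03 CPM in L3 (SD, n = 2; log2 fold change 3.13, adjusted p = 5.92e-05), and CG31344 was within 4.55% of its counts. Among 7 tested GTPase-activating proteins 2 were higher and none was lower, against the same 9.65% and 13.1%. None was lower at an unadjusted p under 0.05 either. Evi5, which acts on Rab11, averaged 5649 ± 834 CPM in adult (SD, n = 4) and 2258 ± 609.5 CPM in L3 (SD, n = 2) with the counts of Gs2, the glutamine synthetase gene and an astrocyte marker. The row rose with a log2 fold change of 1.32 (SE 0.33, adjusted p = 0.006), and the genes cannot be told apart in it. Skywalker (sky), which acts on Rab35, averaged 378 ± 164 CPM in adult (SD, n = 4) and 112 ± 60.9 CPM in L3 (SD, n = 2; log2 fold change 1.80, adjusted p = 0.00371), with exactly the counts of CG14401, and did not pass with L3 library 1 left out (adjusted p = 0.0993, and 0.000195 to 0.0993 over all alternatives).

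Among 23 tested effectors and tethers, 1 was higher and 4 were lower, against 9.65% and 13.1% of all tested genes. Rbpn-5 averaged 2211 ± 487 CPM in adult (SD, n = 4) and 211 ± 93.1 CPM in L3 (SD, n = 2; log2 fold change 3.41, adjusted p = 1.31e-06), with the counts of the trehalase gene Treh. The Golgi tether Golgin84 averaged 1.56 ± 2.64 CPM in adult (SD, n = 4) and 23.2 ± 1.96 CPM in L3 (SD, n = 2; log2 fold change -3.98, SE 1.09, adjusted p = 0.0107) with exactly the counts of CG18528. Without adult library 3 the log2 fold change was -5.91, and it did not pass with L3 library 1 left out (adjusted p = 0.106), with DESeq2 (0.0809) or with the earlier quasi-likelihood method (0.137, and 0.0103 to 0.137 over all alternatives). Golgin245, another Golgi tether, averaged 42.5 ± 15.5 CPM in adult (SD, n = 4) and 133 ± 64.3 CPM in L3 (SD, n = 2; log2 fold change -1.59, adjusted p = 0.0105), with the counts of CG13551, and did not pass with L3 library 2 left out (adjusted p = 0.154, and 0.00955 to 0.164 over all alternatives). The Rab3 and Rab27 effector Rph and the endosome gene ema were the other lower rows (adjusted p = 0.0396 and 0.0468), with exactly the counts of ras for Rph and of mRpS33 and CG14894 for ema. Both calls were lost with DESeq2, limma-voom, the earlier quasi-likelihood method or no filter, and when adult library 1 or 4 or either L3 library was left out. Rph also lost its call without adult library 2, and ema without adult library 3. Over all alternatives adjusted p ran from 0.0191 to 0.229 for Rph and from 0.0210 to 0.342 for ema.

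**Figure D5:**
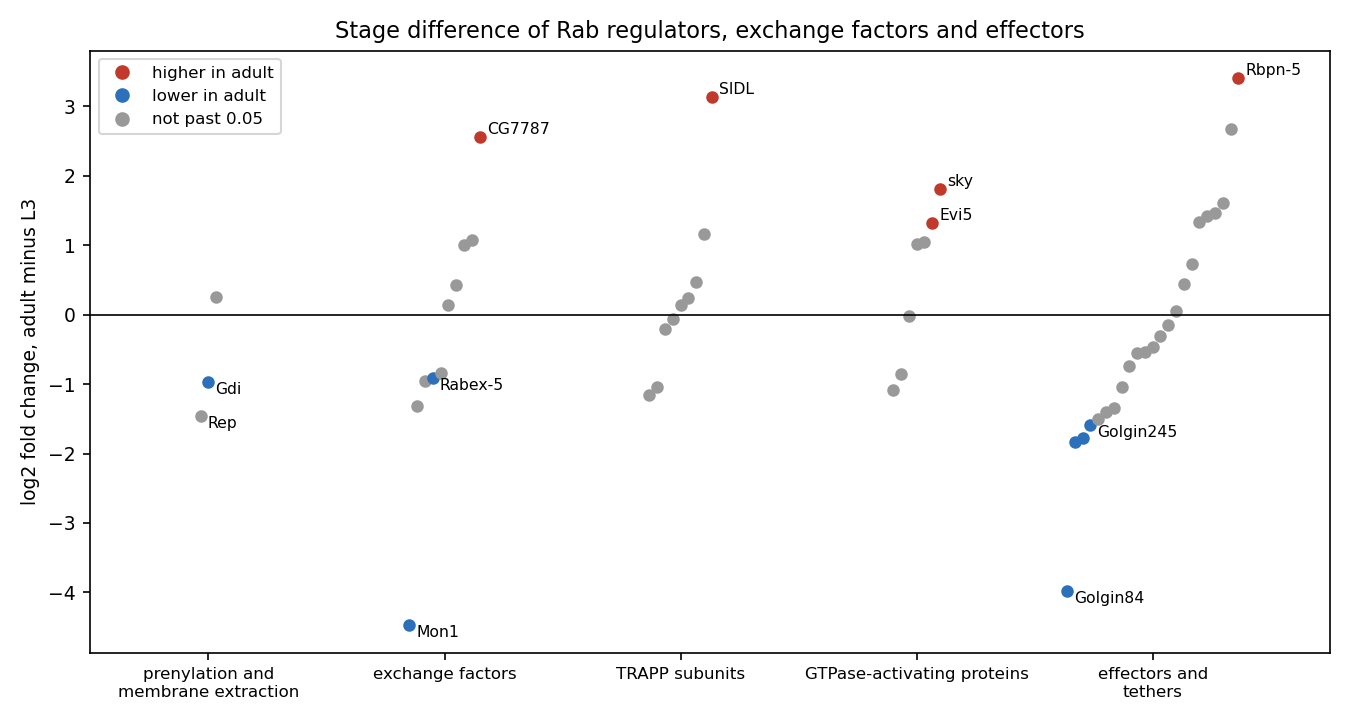
Log2 fold change, adult minus L3 (y axis), of the 52 tested Rab regulators, exchange factors, GTPase-activating proteins and effectors, 1 point a gene, by list (x axis) and in order of value within a list. Coloured points passed 0.05 in edgeR, 5 higher (red) and 7 lower (blue) in adult, and labels mark genes described in the text.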

How the data were processed

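Per the labels, 3′ end libraries were made from pools of sorted cells. The authors deposited whole-number counts per gene symbol for 6 libraries, without normalization and without pooling, and 0 other sample columns were present. The submitters' processing notes list HISAT 0.1.5, HOMER and bcl2fastq. The build, strand use and handling of molecular identifiers were not given in the sources used here, so no coordinates are given. The floors cover counting error only in the stage with no count. The interval of a pooled-count ratio covers counting error only. Intervals of fold changes come from the quasi-likelihood fit and also include the spread between libraries. No interval or floor covers errors from the steps that were not given. No Rab sequence is printed.

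CPM is a count scaled to its library's total over all rows, in which shared counts are repeated. Counts of all 6 libraries were TMM-scaled, filtered by stage with filterByExpr and tested with edgeR 4.0.16 (quasi-likelihood, R 4.3.3) with 1 coefficient for stage and Benjamini-Hochberg adjustment over all genes at 0.05. This test gives every adjusted p unless a different tool or setting stands beside it. Fold changes (log2) are of adult over L3. The SE of a fold change is its size over the square root of F, and its 95% interval is unadjusted. For a gene with no count in a stage, the fold was taken against 3 counts over that stage. The level of the other stage was used as counted, so its error is not covered. The 95% interval of a pooled-count ratio is exact and conditional on the sum.

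Alternatives were upper quartile and RLE scaling, limma-voom (limma 3.58.1), DESeq2 1.42.0, edgeR's earlier quasi-likelihood method, no filter and a stricter filter, each library left out, 4 libraries with and without a replicate block, and 1 row per group of near-identical neighbours. The test was checked on simulated counts of adult against L3. Over all runs 150 genes were changed at each fold, with a median of 8283 genes tested, and each gene was drawn independently. There edgeR recovered 2.67% of 2-fold, 18.7% of 4-fold, 48% of 8-fold and 70.7% of 16-fold changes. Of its calls, 9.48% were on unchanged genes, a larger share than the threshold allows. In the data many more genes were called, 2064 of 9082, and many rows share counts. The simulated shares therefore need not hold for these rows. A row that did not pass may still differ between stages, and some called rows may not. The Rab rows, regulator lists, marker lists and settings were chosen with earlier results of these data known. Every Rab row is named. Full statistics are given for called rows, Rab1, Rab5, Rab7 and Rab11 and rows whose call changes, and of the regulators for Gdi, Rep and up to 2 called genes a list and direction. Rph and ema were added so that all called regulators are named. The listed names brun, Rabaptin-5 and dor were not matched to a row, which does not show that these genes are absent under another name. Other cell types were checked with marker lists for neurons, hemocytes, photoreceptors, fat body and surface and cortex glia.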

Additional observations from a re-analysis of the deposited data

Results flagged for a closer look

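A test for a single value far from the rest of its group was run on the 4 adult libraries of 39 genes, the Rab rows with at least 30 counts and the named regulators, and chance flags about 1 in 20 such groups. Rab30 stood out through adult library 1, with 43.4 CPM against 0, 0 and 2.33 CPM in the other adult libraries, a gap of 0.946 of the adult range, above Dixon's 95% critical value for 4 samples. The neighbour CG31908 has the same counts and the same gap. Golgin84 stood out through adult library 3, with 5.48 CPM, a gap of 0.858 of the adult range, but this is 5 counts against 0, 0 and 1. The flags number 2 of 39 genes, about the share that chance gives.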

How the results depend on the processing

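For the 25 tested Rab rows, 399 values under other settings were computed: 360 kept direction and side of the threshold, 16 in 5 rows kept direction and lost the call, 3 in 2 rows gained it, and 20 in 6 uncalled rows changed sign. The 5 called rows kept their direction under all settings run. With all libraries, 1 Rab row was higher and 4 lower. Leaving out 1 library gave 0 to 2 higher and 1 to 5 lower, and edgeR's earlier quasi-likelihood method gave 2 lower. Of regulators 5 were higher and 7 lower, and leaving out 1 library gave 4 to 6 and 2 to 5. The lower regulators numbered 2 with DESeq2, 2 with the earlier method and 4 with no filter. With 1 row per group of neighbours, 32 regulators were tested, and 1 was higher (SIDL) and 4 lower. That setting removes rows before the fit, so a removed regulator was not tested and did not lose its call there. CG7787 and sky were among those removed. Gdi was kept and did not pass (adjusted p = 0.0541). Of all genes 2064 were called, 876 higher and 1188 lower. Leaving out 1 library gave 912 to 2209 in all, 403 to 1020.0 higher and 509 to 1189 lower, with the lowest without L3 library 1. The earlier method called 1079, 521 and 558. With 1 row per group, which leaves 6030 genes to test, the numbers were 1253, 540.0 and 713. DESeq2 called 687 lower. Apart from the removal of rows, the causes were not tested. The median of all genes was -0.14, but -0.43 with limma-voom and -0.37 with no filter.

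Libraries 1 and 2 of each stage share numbers, but the labels do not say that a number pairs them, and the deviations of same-numbered libraries correlated at 0.0104 over 9082 genes. With a replicate block on these 4 libraries, edgeR called 0 Rab rows higher and 0 lower (2 and 5 at an unadjusted p under 0.05), 3 regulators higher and 1 lower, and 492 genes, 306 higher and 186 lower (62.2% higher). The same 4 libraries without the block gave 1664 genes, 779 higher and 885 lower (46.8% higher), 2 Rab rows higher, Rab9 and Rab26, and 4 regulators lower. Rep then passed too (adjusted p = 0.0402).

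Signs changed as follows in uncalled rows, in log2. With 1 library left out the range was -0.19 to 0.19 for Rab5, -0.26 to 0.21 for Rab7, -1.72 to 2.26 for RabX6, -0.30 to 1.35 for Rab23, -0.54 to 0.37 for RabX4 and -0.60 to 0.89 for Rab21. Rab5 was at -0.033 with limma-voom. RabX4 was at 0.14 with DESeq2, 0.13 with the earlier method, and 0.31 and 0.30 with and without the replicate block. Rab21 was at 0.64 with and without the block. Depth limits the low rows most: 3 counts over a stage, 0.724 CPM in adult and 0.657 CPM in L3, is the floor, and 10 of the 35 rows were too low to test.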
